A study of Homo sapiens with 4 samples.

Results

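Histone genes were described in PLC/PRF/5, an established line of human liver cancer (hepatocellular carcinoma), after knockdown of USP22. A gene was counted as a histone gene when its symbol in the count table began with HIST, a digit and H, or with H2AF, H3F3 or H1F. These names covered 61 of the 12154 gene symbols of the table, 51 replication-dependent genes with HIST names and 10 variant genes. Of the 61 genes, 3 had 2 rows (H2AFY, HIST1H2BD and HIST1H2BK), and the row with the highest summed count stood for the gene. The study held 2 control libraries (genotype control, titled NC) and 2 libraries from cells in which USP22 had been silenced by lentivirus (titled shUSP22); the labels name neither the hairpin nor the control vector. Cells of all 4 libraries grew in high-glucose DMEM and were kept for 48 h in 1% oxygen, 5% carbon dioxide and nitrogen, so no library without hypoxia was analysed here. The comparison asks how histone transcripts differ when USP22 is low in hypoxic liver cancer cells. The labels do not say whether the 2 libraries of a group came from separate cultures, so the p-values measure the spread between these libraries, which may be technical.

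Histones H2A, H2B, H3 and H4 form the protein core of the nucleosome, and H1 linker histones bind where DNA enters and leaves it. The replication-dependent genes lie in clusters, are transcribed mainly while DNA is copied in S phase, and give mRNAs that end in a conserved stem-loop in place of a poly(A) tail. The variant genes are transcribed throughout the cell cycle, and most give ordinary polyadenylated mRNAs. USP22 is the enzyme of the SAGA coactivator complex that removes ubiquitin from histone H2B. The labels state that mRNA was isolated from total RNA without naming how. Where poly(A) is used for that, replication-dependent mRNAs without a tail are recovered poorly, and the method and its part in the values below were not tested.

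The transcript ends are shown first because the stem-loop is what sets most replication-dependent mRNAs apart from polyadenylated ones. A stem-loop was searched as the letters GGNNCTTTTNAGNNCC with complementary arms, on the sense strand, in the GENCODE release 29 transcript that carries the same accession as the row. It was found in 25 of 51 HIST transcripts and in 1 of 10 variant transcripts, that of H2AFX. Many HIST models stop at the end of the coding sequence, so an absent match says only that the letters are not in the model. In 16 of the 25 HIST transcripts the model ran on for more than 100 bases after the stem-loop. The contexts below print the stem-loop in capitals for the H2AFX transcript, 3 H4 transcripts described later, HIST2H2BE and the shorter HIST1H2BD transcript.
H2AFX: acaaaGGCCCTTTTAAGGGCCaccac
HIST1H4E: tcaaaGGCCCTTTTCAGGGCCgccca
HIST1H4B: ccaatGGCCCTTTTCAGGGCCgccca
HIST1H4H: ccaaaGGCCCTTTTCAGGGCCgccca
HIST2H2BE: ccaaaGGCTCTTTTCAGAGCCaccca
HIST1H2BD (transcript HIST1H2BD-202): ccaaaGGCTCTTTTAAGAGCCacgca
HIST genes of the H2A, H2B and H3 classes used the stem-loops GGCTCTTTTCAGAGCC or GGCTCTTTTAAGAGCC, whereas every H4 gene with a match used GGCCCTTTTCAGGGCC or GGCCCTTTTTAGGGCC. The H2AFX stem-loop, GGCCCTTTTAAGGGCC, occurred in no other histone transcript searched. The other HIST1H2BD transcript, HIST1H2BD-201 of 789 bases, held no stem-loop and ended in a polyadenylation signal, shown here with AATAAA in capitals 19 bases before the end of the model.
HIST1H2BD (transcript HIST1H2BD-201): agttataattAATAAAatctgcggag

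Promoters were examined as the 250 bases before the annotated start, from RefSeq (GRCh38.p14), which matched 56 of the 61 genes, 47 HIST and 9 variant. Each of 5 motifs was searched on both strands, and no motif contains another. The CCAAT box (CCAAT) was present in 38 of 47 HIST promoters, against 33% of 27305 promoters of all genes. All 37 matched promoters of H1, H2A, H2B and H3 HIST genes held it, but 1 of 10 H4 promoters. GGTCCG, the core of the H4-specific element that the factor HINFP binds, was in 10 of 10 H4 promoters and 9.33% of all promoters, and lay between positions -47 and -44 in the H4 genes. The octamer ATTTGCAT was in 8 of 13 H2A and 9 of 13 H2B promoters, against 1.66% of all. These 2 classes share sequence, since 8 pairs of an H2A and an H2B promoter window overlapped. The H1 box AAACACA was in 4 of 4 HIST H1 promoters and 4.95% of all, and TATAAA was in 30 of 47 HIST promoters and 11.1% of all. A match is a description of the letters and not a binding site. Printed below, in the direction of transcription and with all of these motifs in capitals on either strand, are the promoters of 4 genes with changed counts. H2AFX and H2AFZ are variant genes, and HIST1H1C and HIST1H2BD are HIST genes.
H2AFX (chr11:119095466-119095715, minus strand): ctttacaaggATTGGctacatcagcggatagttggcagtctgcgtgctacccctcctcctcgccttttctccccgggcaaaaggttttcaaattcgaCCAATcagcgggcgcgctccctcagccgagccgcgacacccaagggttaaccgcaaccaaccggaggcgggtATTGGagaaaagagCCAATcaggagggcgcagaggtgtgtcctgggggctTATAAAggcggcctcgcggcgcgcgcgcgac
H2AFZ (chr4:99950276-99950525, minus strand): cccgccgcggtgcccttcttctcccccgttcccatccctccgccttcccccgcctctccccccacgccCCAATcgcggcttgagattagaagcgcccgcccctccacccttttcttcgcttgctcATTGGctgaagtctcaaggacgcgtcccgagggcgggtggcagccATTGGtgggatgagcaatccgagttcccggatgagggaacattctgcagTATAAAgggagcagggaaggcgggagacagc
HIST1H1C (chr6:26056471-26056720, minus strand): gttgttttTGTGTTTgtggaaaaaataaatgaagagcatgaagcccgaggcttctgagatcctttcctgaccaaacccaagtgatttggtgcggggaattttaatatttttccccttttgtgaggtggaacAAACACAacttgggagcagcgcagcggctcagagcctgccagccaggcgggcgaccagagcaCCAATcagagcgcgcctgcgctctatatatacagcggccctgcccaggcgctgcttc
HIST1H2BD (chr6:26157871-26158120, plus strand): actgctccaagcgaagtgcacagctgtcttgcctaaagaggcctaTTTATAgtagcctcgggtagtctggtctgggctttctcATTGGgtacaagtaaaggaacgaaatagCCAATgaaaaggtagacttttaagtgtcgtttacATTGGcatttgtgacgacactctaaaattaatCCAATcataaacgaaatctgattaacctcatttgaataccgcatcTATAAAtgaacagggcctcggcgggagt
The H2AFX and H2AFZ promoters carried CCAAT and TATAAA, each of which was in most HIST promoters. They do not stand for all variant genes, whose promoters held CCAAT in 6 of 9 and TATAAA in 4 of 9. Among the 6 variant H2A promoters TATAAA was in 2, these same ones, and H1FX had TATAAA but no CCAAT. The last 100 bases before the start are shown for 5 H4 genes described later and for H1FX, whose promoter also held GGTCCG, with GGTCCG and TATAAA in capitals on either strand.
HIST1H4B (chr6:26027284-26027383, minus strand): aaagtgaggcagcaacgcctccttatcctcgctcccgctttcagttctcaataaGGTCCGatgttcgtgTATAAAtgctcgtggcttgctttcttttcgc
HIST1H4D (chr6:26189113-26189212, minus strand): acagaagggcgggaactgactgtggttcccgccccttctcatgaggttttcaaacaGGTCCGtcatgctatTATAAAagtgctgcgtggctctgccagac
HIST1H4E (chr6:26204510-26204609, plus strand): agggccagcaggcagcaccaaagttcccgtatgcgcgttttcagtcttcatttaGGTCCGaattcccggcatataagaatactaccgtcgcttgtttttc
HIST1H4K (chr6:27831561-27831660, minus strand): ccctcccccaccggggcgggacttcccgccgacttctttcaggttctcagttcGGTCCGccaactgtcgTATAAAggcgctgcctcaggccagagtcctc
HIST1H4H (chr6:26285535-26285634, minus strand): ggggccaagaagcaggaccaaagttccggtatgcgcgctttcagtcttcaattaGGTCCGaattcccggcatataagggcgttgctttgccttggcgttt
H1FX (chr3:129316287-129316386, minus strand): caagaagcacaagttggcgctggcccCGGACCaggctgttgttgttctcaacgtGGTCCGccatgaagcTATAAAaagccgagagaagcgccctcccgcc

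The knockdown was visible in USP22 itself, which had 2937 and 2573 counts per 1000000 normalized counts (CPM) in the controls and 359.5 and 447 CPM in the knockdown libraries (log2 fold change -2.77, SE 0.17, edgeR adjusted p = 1.36e-06). Library totals ranged from 15027209 to 17194929 counts. Transcripts passed where the quasi-likelihood p of edgeR, adjusted over 12337 transcripts, was under 0.05, and 18.7% of them did, 8.49% higher and 10.2% lower after knockdown. All 14 hepatocyte markers listed were tested, with summed levels of 30711 to 32212 CPM in the controls and 40151 to 48798 CPM in the knockdown libraries, and 8 of them were higher. Of 6 leukocyte markers 2 had a row, CD68 and LYZ, which together ranged from 305 to 360.2 CPM in the controls and 222 to 384 CPM in the knockdown libraries. Endothelial markers (3 of 4 with a row) summed to 11.6 to 17.9 CPM in the controls and 23.3 to 29.6 CPM in knockdown, with VWF at or near 0 and PECAM1 higher. Fibroblast markers (3 of 6 with a row) summed to 19.7 to 27.5 CPM in the controls and 18.1 to 22.0 CPM in knockdown. Their part in the histone values was not tested.

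Of the 61 histone genes, 48 had enough counts to be tested, 38 of 51 HIST genes and 10 of 10 variant genes. Among HIST genes 0 were higher and 2 were lower, HIST1H1C and HIST1H2BD. Among variant genes 3 were higher, H2AFX, H2AFZ and H1FX, and 1 was lower, H1F0. That is 6 of 48 genes, 12.5%, beside 18.7% of all tested transcripts. The share was 40% of the variant genes and 5.26% of the HIST genes. Before adjustment 7 of 38 HIST genes had p under 0.05 in edgeR, all of them lower, beside 31.6% of all tested transcripts, and DESeq2 and limma-voom also called 0 HIST genes higher. The median log2 fold change was -0.29 over HIST genes, 0.20 over variant genes and 0.00 over all transcripts. The classes also differed in precision, with a median SE of 0.73 for HIST genes and 0.18 for variant genes, against 0.33 for all transcripts. Their counts differed likewise, with a median of 94 counts summed over the 4 libraries in the tested HIST genes and 19840 in the variant genes, against 497 over all transcripts. The 13 HIST genes with too few counts to test were HIST1H1B, HIST1H1D, HIST1H2AH, HIST1H2AI, HIST1H2AJ, HIST2H2AB, HIST1H2BF, HIST1H2BH, HIST1H2BI, HIST1H2BL, HIST3H3, HIST1H4A and HIST2H4A, none of which exceeded 1.01 CPM in a library. Which variant genes passed changed when single libraries were left out, and so did the number of calls over all transcripts.

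**Figure D1:**
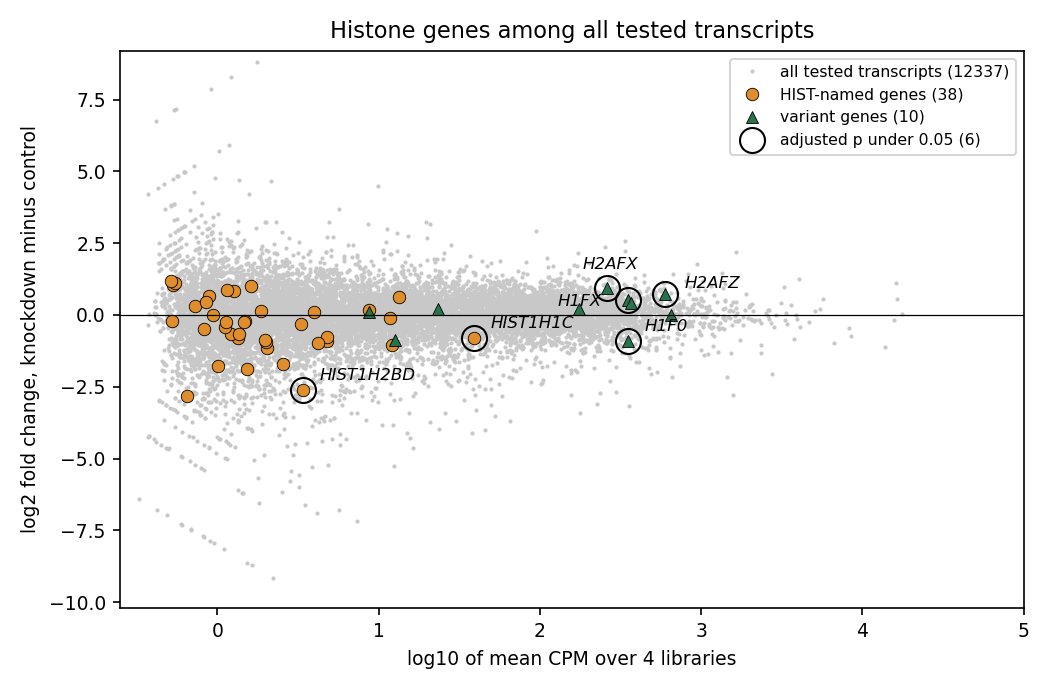
Log2 fold change (knockdown minus control) against the log10 of mean CPM for 12337 tested transcripts in grey, 38 HIST-named genes as circles and 10 variant genes as triangles, with the 6 genes past an adjusted p of 0.05 ringed. Most HIST genes lie at the low end of abundance, where the grey cloud is wide, and the variant genes lie mostly at the high end.

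The linker histones went both ways. H1F0 encodes H1.0, a linker histone that builds up in resting and differentiated cells, and its levels were 465 and 461 CPM in the controls and 279 and 208 CPM in the knockdown libraries. Both knockdown libraries lay below both controls, and H1F0 fell by 0.92 on the log2 scale (SE 0.17, edgeR adjusted p = 0.00277). HIST1H1C encodes H1.2, one of the main replication-dependent linker histones, and measured 51.8 and 47.5 CPM in the controls and 26.4 and 30.4 CPM in the knockdown libraries. The groups did not overlap, and HIST1H1C fell by 0.80 (SE 0.21, adjusted p = 0.0154). H1FX encodes the linker variant H1.X and moved the other way. Its levels were 288 and 291 CPM in the controls and 369.9 and 457 CPM in the knockdown libraries, again without overlap, and it rose by 0.51 (SE 0.16, adjusted p = 0.0433). The summed level of these 2 variant linker genes differed less than either of them, at 752 ± 0.106 CPM in the controls and 658 ± 11.6 CPM in knockdown (SD, n = 2 each).

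Of the other HIST linker genes, HIST1H1E (H1.4) had 1.26 and 2.16 CPM in the controls and 1.45 and 0.524 CPM in the knockdown libraries, which overlap. Its log2 fold change was -0.80 with a 95% interval of -2.30 to 0.70, which holds both 0 and a change of the size seen in HIST1H1C. The HIST1H1C call was lost without control library 1 (adjusted p = 0.100), and the H1FX call without control library 1, control library 2 or knockdown library 2 (adjusted p = 0.196, 0.165 and 0.162). H1FX overlaps the antisense gene H1FX-AS1, whose reads cannot be told apart from its own in unstranded libraries.

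Among the H2A variants, the H2A.Z and H2A.X genes rose. H2AFZ encodes H2A.Z.1, which replaces H2A in nucleosomes around promoters, and measured 419 and 489 CPM in the controls and 663 and 827 CPM in the knockdown libraries. All knockdown values lay above the controls, and H2AFZ rose by 0.71 on the log2 scale (SE 0.17, edgeR adjusted p = 0.00949). H2AFX encodes H2A.X, the form phosphorylated at DNA breaks, and measured 147 and 210.5 CPM in the controls and 283 and 410.4 CPM in the knockdown libraries. The groups did not overlap although the libraries within each differed, and H2AFX rose by 0.95 (SE 0.21, adjusted p = 0.00744). The H2AFZ call was lost without control library 1 (adjusted p = 0.0935), while the H2AFX call held without each library in turn, with adjusted p up to 0.0467. H2AFZ overlaps the opposite-strand gene AC097460.1, so its count may hold reads of that gene.

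**Figure D2:**
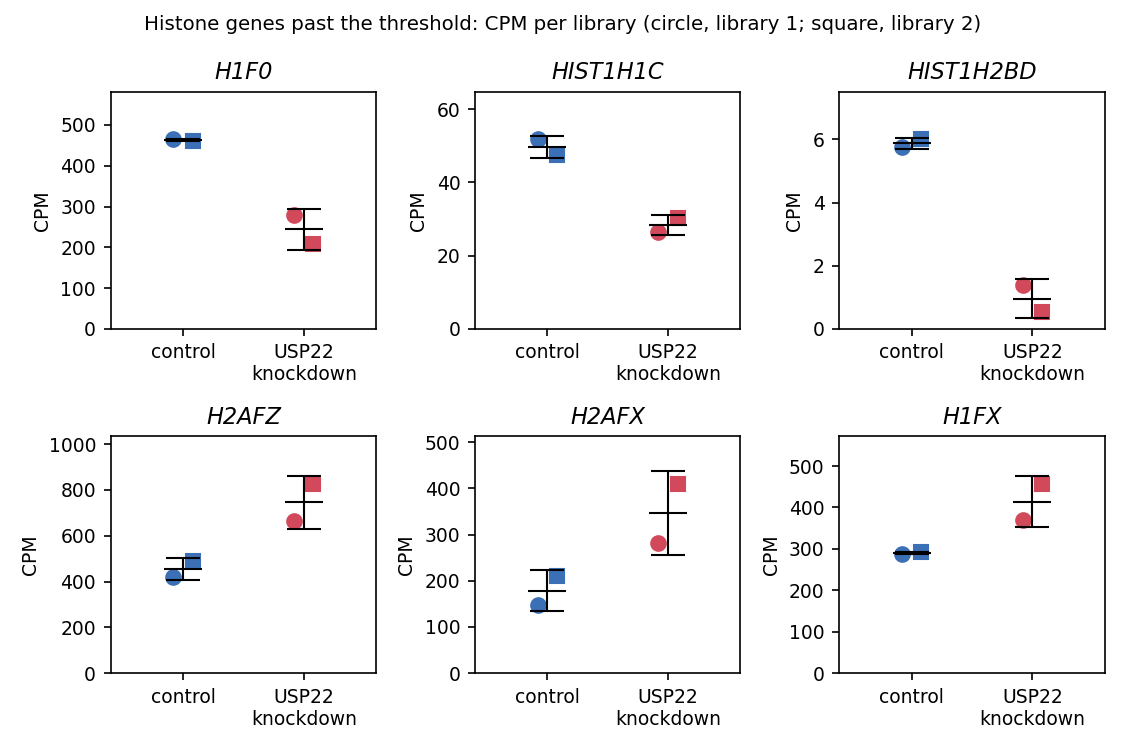
CPM of the 6 histone genes past the threshold, one panel per gene with its own axis from 0, for 2 control and 2 USP22 knockdown libraries (circles, library 1, and squares, library 2), with the mean and SD in black. The knockdown points of H1F0, HIST1H1C and HIST1H2BD lie below both control points, and those of H2AFZ, H2AFX and H1FX lie above them.

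The other H2A variants did not pass. H2AFV, which encodes H2A.Z.2, the close relative of H2A.Z.1, had 133 and 193 CPM in the controls and 198 and 174 CPM in the knockdown libraries. These ranges overlap, and the log2 fold change was 0.19 with a 95% interval of -0.23 to 0.61. H2AFY encodes macroH2A1, a large variant of silenced chromatin, and had 18.9 and 13.5 CPM in the controls and 10.2 and 7.63 CPM in the knockdown libraries. Its libraries did not overlap, and the log2 fold change of -0.86 (SE 0.29) had an adjusted p of 0.0578. The second H2AFY row held 3.47 and 3.77 CPM in the controls and 3.31 and 5.01 CPM in knockdown, a log2 fold change of 0.20. The first H2AFY row was called lower without control library 2 (adjusted p = 0.0328) and without knockdown library 1 (0.0193). H2AFY2 (macroH2A2) and H2AFJ (H2A.J) had log2 fold changes of 0.21 and 0.10 with overlapping libraries. These 4 genes were chosen for naming after their values were seen. Summed over the 6 genes, the variant H2A level was 842 ± 137 CPM in the controls and 1321 ± 198 CPM in knockdown (SD, n = 2 each).

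None of the 10 tested HIST genes of the H2A class passed in edgeR, and 1 had an unadjusted p under 0.05, HIST2H2AA4. DESeq2 and limma-voom also called 0. The most abundant was HIST3H2A, with 10.7 and 13.7 CPM in the controls and 11.0 and 11.4 CPM in the knockdown libraries. Its ranges overlap and the log2 fold change was -0.12 (95% interval -0.72 to 0.47). HIST1H2AC followed with 3.599 and 4.14 CPM in the controls and 4.83 and 3.44 CPM in knockdown (log2 fold change 0.09, 95% interval -0.75 to 0.93). HIST2H2AA3 and HIST2H2AA4 are near-identical copies, which share 97.1% of the 50-base stretches of HIST2H2AA4, so the split of reads between them is uncertain. Their summed counts were 79 and 89 in the controls and 20 and 43 in the knockdown libraries, so both knockdown libraries lay below both controls. The other 6 tested genes, HIST1H2AE, HIST1H2AG, HIST1H2AK, HIST1H2AL, HIST1H2AM and HIST2H2AC, had log2 fold changes from -0.20 to 1.03. HIST2H2AA4 alone had a log2 fold change of -1.88 with an adjusted p of 0.0561, and HIST2H2AA3 one of -1.15 with 0.214. HIST2H2AA4 was called lower without control library 2 (-2.21, adjusted p = 0.0245).

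USP22 acts on the H2B protein, and the values here are of H2B RNA. HIST1H2BD had 91 and 97 counts in the controls and 21 and 9 in the knockdown libraries, or 5.75, 5.998, 1.39 and 0.524 CPM. The groups lay far apart, and this row fell by 2.63 on the log2 scale (SE 0.50, edgeR adjusted p = 0.00298), the largest change among the 6 called genes. The row that fell is the longer transcript with the polyadenylation signal shown above. With both rows of the gene summed, the log2 fold change was -2.295. The row of the stem-loop transcript had 9 and 2 counts in the controls and 2 and 8 in the knockdown libraries, too few to test. How reads common to both transcripts were counted is not stated, so their split between the rows is uncertain. The call held without each library in turn, with log2 fold changes from -3.45 to -2.07.

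Of the 9 tested H2B genes, 1 passed and 4 had an unadjusted p under 0.05, a p that 31.6% of all tested transcripts reached. HIST2H2BE, the most abundant with HIST1H2BK, had 12.4 and 20.2 CPM in the controls and 5.16 and 10.7 CPM in the knockdown libraries. Its knockdown libraries lay below the controls, at a log2 fold change of -1.04 (SE 0.36, adjusted p = 0.0628 in edgeR and 0.0469 in limma-voom). HIST1H2BK had 9.34 and 11.6 CPM in the controls and 12.4 and 20.1 CPM in the knockdown libraries, the reverse order, with a log2 fold change of 0.64 (95% interval -0.01 to 1.28, adjusted p = 0.163). HIST1H2BN had 6.23 ± 2.08 CPM in the controls and 3.31 ± 0.559 CPM in knockdown (SD, n = 2 each), with a log2 fold change of -0.91 and an adjusted p of 0.125. HIST3H2BB had the lowest log2 fold change of the 48 tested histone genes, -2.84, but from 0.631 and 1.67 CPM in the controls and 0.132 and 0.175 CPM in knockdown (adjusted p = 0.0549). HIST1H2BC, HIST1H2BG, HIST1H2BJ and HIST1H2BO had log2 fold changes from -0.50 to 0.01. HIST1H2BN, HIST3H2BB, HIST2H2AA3 and HIST2H2AA4 lie outside the rule for naming and were chosen after their values were seen. Without control library 1, HIST2H2BE and HIST3H2BB were called lower (adjusted p = 0.00449 and 0.0167), as was HIST2H2BE without knockdown library 2 (0.000349), and without knockdown library 1 HIST1H2BK was called higher (0.0203). HIST1H2BN overlaps HIST1H2AK on the other strand.

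No H3 gene passed. H3F3A and H3F3B both encode the same replacement histone, H3.3, which is also laid down outside S phase. H3F3A had 284 and 346 CPM in the controls and 405 and 431 CPM in the knockdown libraries. All knockdown values were above the controls, with a log2 fold change of 0.41 (95% interval 0.06 to 0.76) and an adjusted p of 0.102 in edgeR. H3F3B had 604 and 705 CPM in the controls and 602 and 697 CPM in the knockdown libraries, almost the same pairs of values. Its log2 fold change was -0.01 (95% interval -0.35 to 0.33), and the difference between the 2 genes was not tested. H3F3A was called higher without knockdown library 1 (adjusted p = 0.0368).

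Among 7 tested HIST genes of the H3 class 0 passed and 0 had an unadjusted p under 0.05 in edgeR, and DESeq2 and limma-voom called 0. HIST1H3H had 1.45 and 2.102 CPM in the controls and 1.72 and 2.15 CPM in the knockdown libraries (log2 fold change 0.12, SE 0.54). HIST1H3G had 28 and 6 counts in the controls and 60 and 7 in the knockdown libraries, so library 1 was the higher in each group. Its log2 fold change was 1.02 (SE 0.91), and it was called higher without control library 1 (2.52, adjusted p = 0.0372) and without knockdown library 2 (1.89, adjusted p = 0.0499). HIST1H3J, named after its values were seen, had 11 and 0 counts in the controls and 13 and 11 in the knockdown libraries. Without control library 1 its log2 fold change was 6.61, from a fit whose only control library had 0 counts for this gene. HIST1H3A, HIST1H3B, HIST1H3D, HIST1H3E and HIST1H3J had log2 fold changes from -0.66 to 1.10. All 8 HIST genes of this class together had 116 to 149 counts per library.

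In sum, the H4 genes differed more between the 2 libraries of a group than between the groups. HIST1H4E had 183 and 7 counts in the controls and 104 and 5 in the knockdown libraries. HIST1H4B had 78 and 5 in the controls and 42 and 0 in knockdown, and HIST1H4D had 76 and 5 in the controls and 43 and 0 in knockdown. Library 1 was high and library 2 near the floor in both groups. A count of 0 in knockdown library 2 allows up to 3 counts, or 0.175 CPM. HIST1H4K, with 145 and 32 counts in the controls and 72 and 15 in knockdown, and HIST1H4C, with 228 and 32 in the controls and 200 and 89 in knockdown, showed the same order at smaller ratios. In all 10 tested H4 genes library 1 exceeded library 2 in CPM in both groups, an order found in 27.2% of all tested transcripts.

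Summed over the 12 H4 genes, the level was 59.0 CPM (exact Poisson 95% interval 55.2 to 62.9) in control library 1 and 9.46 CPM (8.02 to 11.1) in control library 2. In the knockdown libraries it was 37.8 CPM (34.8 to 41.0) and 8.68 CPM (7.34 to 10.2). These intervals cover counting error only. Library 1 was thus 6.23 times library 2 in the controls and 4.36 times in knockdown. The summed CPM of the other 39 HIST genes did not share this, with library ratios of 0.982 and 0.938. HIST1H1C made up the largest part of that sum. Of the 28 tested genes in it, 10 had library 1 higher in both groups, beside 27.2% of all tested transcripts. Gaps for single transcripts were taken from log2 CPM with a prior count of 2 added, which shrinks ratios of low counts. By this measure library 1 was at least 3-fold above library 2 in both groups in 36 tested transcripts, 0.292%. Among these were 7 histone genes, 5 of the H4 class with HIST1H3G and HIST1H2BC. The 5 were HIST1H4B, HIST1H4D, HIST1H4E, HIST1H4K and HIST2H4B. HIST1H4H, at 5.87 and 1.92 CPM in the controls and 1.85 and 0.524 CPM in knockdown, fell just short by this measure. A gap of that size with library 2 the higher was found in 13 transcripts (0.105%), and one that ran opposite ways in the groups in 34 (0.276%). No histone gene was among the 13, and 1 was among the 34, HIST1H3A, with 1 and 17 counts in the controls and 13 and 2 in knockdown. The labels name no batch, and any part of handling or cell cycle in this order was not tested.

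**Figure D3:**
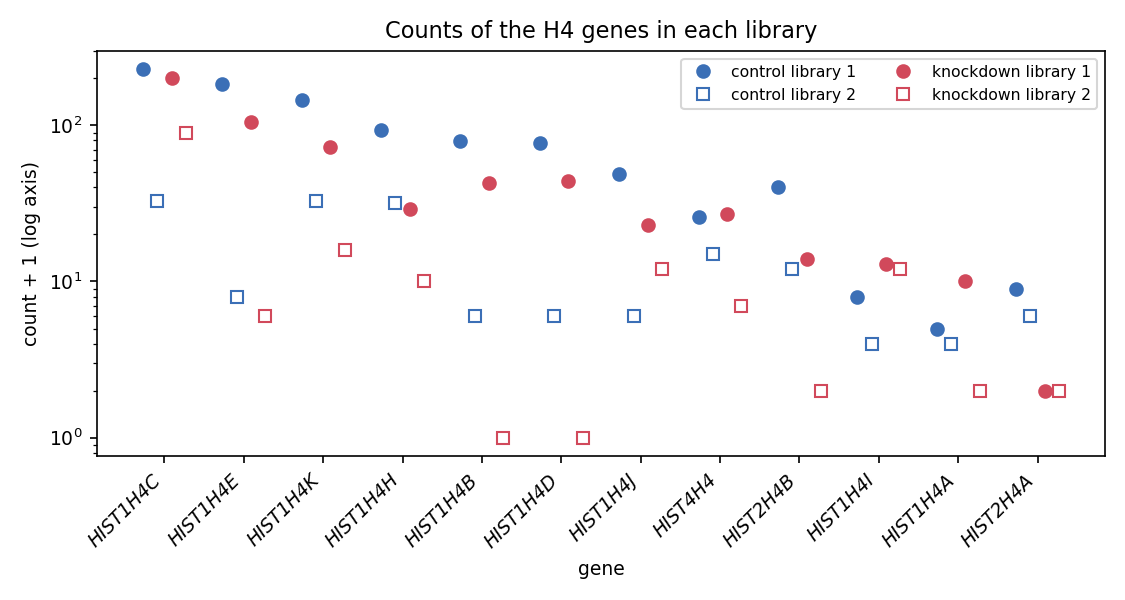
Counts plus 1 (log axis) of the 12 H4 genes in 2 control and 2 knockdown libraries, with filled circles for library 1 and open squares for library 2. In HIST1H4E, HIST1H4B and HIST1H4D the squares of both groups lie more than 3-fold below the circles of both groups.

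Between groups, the direction of H4 genes depended on the libraries included. None of the 10 tested H4 genes passed in edgeR, DESeq2 or limma-voom, all fitted without a term for the library number, and 1 had an unadjusted p under 0.05. That gene, HIST1H4H, had 93 and 31 counts in the controls and 28 and 9 in the knockdown libraries, with a log2 fold change of -1.72 (SE 0.66, adjusted p = 0.0896). The tested H4 genes HIST1H4B, HIST1H4D, HIST1H4I, HIST1H4J, HIST1H4K, HIST2H4B and HIST4H4 had log2 fold changes from -1.79 to 1.17. HIST1H4C had a log2 fold change of 0.17 (SE 0.63) and HIST1H4E one of -0.76 (SE 1.06). HIST1H4E was called lower without control library 2 (-1.71, adjusted p = 0.00184) or knockdown library 1 (-4.32, 1.99e-07) and called higher without control library 1 (3.01, 0.00157). HIST1H4C was called higher without control library 1 (2.21, adjusted p = 0.000288). HIST1H4B, HIST1H4D, HIST1H4H, HIST1H4K and HIST2H4B were called lower without control library 2 and again without knockdown library 1. Over all HIST genes the calls also moved with the library left out, and so did the number of calls over all transcripts. HIST2H4A and HIST2H4B share 95.1% of the 50-base stretches of HIST2H4B, and every such stretch of HIST1H4K is also in HIST1H4J, so the split of reads within these pairs is uncertain. HIST1H3A, HIST1H2BC, HIST2H4B, HIST1H4B, HIST1H4D, HIST1H4K and HIST1H4H were chosen for naming after their values were seen.

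The summed CPM of the 39 HIST genes outside H4 was lower in both knockdown libraries. Gene by gene, 16 of the 28 tested had a log2 fold change below 0 and 12 above. The sum was 135 and 138 in the controls and 95.9 and 102 in the knockdown libraries, without overlap, a log2 ratio of -0.46. The H1 class (51.9 ± 2.53 CPM in control, 30.1 ± 2.43 CPM in knockdown, SD, n = 2 each) and the H2B class (49.0 ± 2.11 and 35.2 ± 4.86 CPM) held most of that difference. HIST1H1C made up most of the H1 sum, with means of 49.6 CPM in control and 28.4 CPM in knockdown. In the H2B class HIST2H2BE had means of 16.3 and 7.91 CPM, and HIST1H2BD 5.87 and 0.956 CPM. Of the 9 tested H2B genes, 2 had a log2 fold change above 0. The H2A class (27.6 ± 3.26 and 25.4 ± 0.696 CPM) and the H3 class (7.91 ± 1.04 and 8.36 ± 2.11 CPM) overlapped between groups. The variant genes summed to 2385 and 2743 CPM in the controls and 2838 and 3253 CPM in the knockdown libraries, a log2 ratio of 0.25. In 13 HIST genes and 6 variant genes of those tested, both knockdown libraries lay beyond both controls, 4 HIST genes above and 9 below and 4 variant genes above and 2 below. That holds for 59.6% of all tested transcripts. No sum was tested, since 2 against 2 libraries cannot reach the threshold by permutation. In bulk RNA, fewer cells in a phase of the cycle and less histone RNA per cell cannot be told apart.

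**Figure D4:**
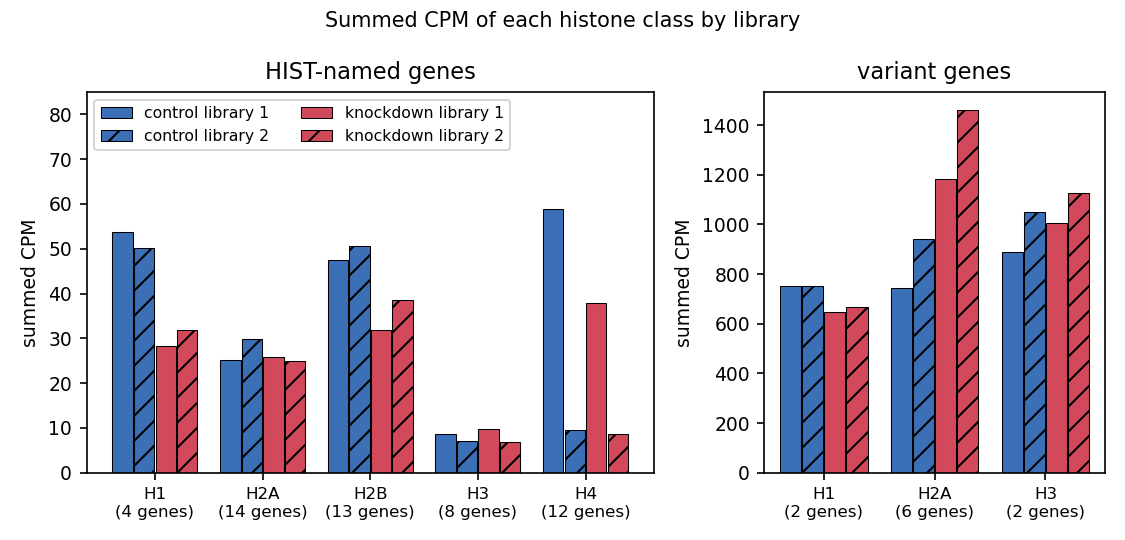
Summed CPM of each histone class in 2 control and 2 knockdown libraries, HIST-named genes at left and variant genes at right, on separate axes from 0, with library 2 hatched. The H1 and H2B sums of HIST genes are lower in both knockdown libraries, the H4 sums are high in library 1 of either group, and the H2A sum of variant genes is higher in both knockdown libraries.

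Levels of different genes were compared per kilobase of the GENCODE transcript. H2AFZ led in control libraries with 464 CPM per kilobase, followed by H3F3A (289.7), H3F3B (242), H1F0 (197), H1FX (192) and H2AFX (111). HIST1H1C was the highest HIST gene with 77.3 CPM per kilobase, and HIST1H2BK followed at 27.4. The median was 1.76 for 51 HIST genes and 152 for 10 variant genes. In knockdown libraries H2AFZ stood at 761 and H3F3A at 384 CPM per kilobase. H2AFZ and H3F3A held the first and second place in each of the 4 libraries, while H1FX passed H3F3B in both knockdown libraries (245 and 304 against 223 and 258 CPM per kilobase). In control libraries H3F3B (223 and 261) and H3F3A (261.4 and 318) adjoined, and so did H1F0 (198 and 197) and H1FX (191 and 193). HIST models that stop at the coding end raise the value per kilobase of such genes. Among them were those of HIST1H1C (642 bases), HIST1H2BK (381 bases) and HIST1H4K (312 bases).

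Genes that act on histone mRNA or protein were counted from lists. Of 15 tested genes of histone mRNA processing 1 was higher and 1 lower, against 8.49% and 10.2% of all tested transcripts. CPSF1 encodes a subunit of the cleavage and polyadenylation specificity factor. Its level rose from 296 ± 39.3 to 434 ± 45.1 CPM (SD, n = 2 each), a log2 fold change of 0.55 with an edgeR adjusted p of 0.035. ERI1, an exonuclease that trims the histone stem-loop end, fell from 154 ± 3.52 to 100.1 ± 21.7 CPM (-0.62, adjusted p = 0.0339). SLBP, which binds the stem-loop, had 24.1 and 21.6 CPM in the controls and 20.8 and 26.0 CPM in the knockdown libraries, a log2 fold change of 0.03 (95% interval -0.47 to 0.54). SLBP was chosen after its value was seen. Of 9 tested genes of histone gene transcription 0 were higher and 1 was lower, CCNE2. CCNE2 encodes cyclin E2, a partner of the kinase CDK2, and fell from 38.1 ± 2.68 to 17.1 ± 1.14 CPM (-1.15, adjusted p = 0.00313). The rows of HINFP and NPAT, the H4 promoter factor and the coactivator of histone loci, had at most 16 counts in a library and were not tested. Both were chosen after their values were seen. Counts are per mRNA and the counting rule is not stated, so a low row does not show that its gene is scarcely expressed.

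Of 28 tested histone chaperones 6 were higher and 2 lower, beside 8.49% of all tested transcripts higher and 10.2% lower. ASF1A, which carries H3-H4 dimers, rose from 32.3 ± 5.53 to 83.7 ± 7.47 CPM, by 1.38 on the log2 scale, with an adjusted p of 0.00054. SUPT16H, a subunit of the FACT complex that handles H2A-H2B dimers, rose from 202 ± 2.18 to 396 ± 35.9 CPM (0.97, adjusted p = 0.00115). CABIN1, a partner of the H3.3 chaperone HIRA, fell by 1.68 and SPTY2D1, an H3-H4 chaperone, by 0.83 (adjusted p = 0.00433 and 0.00764). The chaperone list had a median log2 fold change of 0.33, beside 0.00 over all transcripts. Of 18 tested genes of H2B ubiquitin turnover 1 was higher and 1 lower, the latter USP22. RTF1, a Paf1-complex partner needed to ubiquitinate H2B, rose by 0.51, with an adjusted p of 0.0411.

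Of 25 tested genes of DNA synthesis 6 were higher and 0 lower in edgeR, DESeq2 and limma-voom, beside the same 8.49% and 10.2% of all transcripts in edgeR. MCM5 and MCM3, of the replicative helicase, rose, with log2 fold changes of 1.26 and 1.19 and adjusted p of 0.00125 and 0.00476. The median log2 fold change of this list was 0.41, while that of HIST genes, whose products are needed in S phase, was -0.29. The relation between these medians was not tested. Among centromeric proteins CENPC rose by 0.93 (adjusted p = 0.0103). CENPA, the centromeric H3 variant outside the name rule, had 7.26 and 8.16 CPM in the controls and 10.3 and 14.0 CPM in the knockdown libraries, without overlap. Its log2 fold change was 0.66 (95% interval 0.02 to 1.30, adjusted p = 0.146). Calls in these lists also moved when single libraries were left out, and so did the number of calls over all transcripts. Over these fits the log2 fold change ranged from -0.84 to -0.40 for ERI1 and from 0.42 to 0.69 for CPSF1. Neither of these genes passed in every such fit.

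The authors' deposited table holds fold changes and q-values of its own for the same comparison. A q-value under 0.05 in the authors' deposited table was found for 10 of the 64 histone rows, beside 3208 of all 14540 rows. The 6 genes called by edgeR were among these 10, and the other 4 were HIST2H2AA4, HIST2H2BE, H2AFY and H3F3A. In the authors' deposited table these 4 had log2 fold changes of -1.87, -1.02, -0.84 and 0.43, with q-values of 0.0296, 0.0282, 0.0216 and 0.0108.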

How the data were processed

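RNA of 2 control and 2 USP22 knockdown libraries was analysed, grouped by their titles and genotype labels. The authors deposited raw counts per RefSeq mRNA accession (14540 rows), together with log2 fold changes, p-values and q-values of their own. Tools listed in the submitters' processing notes are HISAT2 2.1.0, HTSeq and bcl2fastq, with build hg19. The sources used here do not say how reads were counted or which test the authors ran. Per the labels' protocols, mRNA was isolated from Trizol-extracted RNA and libraries were made with NEBNext Ultra RNA, a kit that does not mark strand. The lowest row total was 14 counts.

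From the counts, edgeR 4.0.16 (R 4.3.3) kept 12337 transcripts with filterByExpr (minimum count 10) and computed TMM factors of 0.979 to 1.015. CPM are counts per 1000000 of the kept counts, scaled by TMM. Knockdown minus control was tested with glmQLFit and glmQLFTest, with no covariate, Benjamini-Hochberg adjustment over all 12337 and a threshold of 0.05. The SE is the log2 fold change divided by the square root of F. The fit was tested on simulated data first. The biological coefficient of variation common to all transcripts was 22.1%. Chi-square per degree of freedom between the libraries of a group was 19.3 in control and 36.2 in knockdown. With library totals of 15027209 to 17194929 counts, a count of 0 allows up to 3 counts.

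The histone genes and the lists were chosen with earlier results of these data known. Named were genes past the threshold, in each class the 2 with the highest mean CPM, per list the 2 largest changes past the threshold in each direction, and CENPA. Any other name was chosen with its values in view. Stem-loops, lengths and shared 50-base stretches came from GENCODE release 29 transcripts and promoters from RefSeq (GRCh38.p14), not the authors' build. Alternatives were DESeq2 size factors, 2 other filters, leaving out each library, a block for the replicate number, DESeq2 1.42.0, limma-voom (limma 3.58.1) and rows summed per gene. Figures were drawn with matplotlib 3.10.9.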

Additional observations from a re-analysis of the deposited data

How the results depend on the processing

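Of 183 values of 17 named histone genes under the alternatives, 151 kept their direction and side of the threshold, 5 lost a call, 13 gained one and 14 changed sign. Values that changed sign were counted in that group alone, whether or not they also gained a call. The 6 called histone genes stayed called with DESeq2, DESeq2 size factors, limma-voom, either filter and rows summed per gene. With a filter of 5 CPM in 2 libraries the variant genes had 2 lower calls and the H2B ubiquitin list 2 higher, and that list also had 2 higher with limma-voom and with rows summed per gene. The labels do not say that a replicate number marks a pair, and with 2 numbers the check is weak (correlation of same-numbered deviations 0.112). With the replicate number as a block, 1672 of the 12337 tested transcripts were higher and 1859 lower, against 1047 and 1257 without it. HIST genes had 5 lower calls of 38 tested, and variant genes 4 higher and 2 lower of 10. The transcription list had 1 higher call of 9 tested, the chaperones 12 higher of 28 and the H2B ubiquitin list 2 higher of 18. The histone genes called with the block and not in the analysis as reported were HIST1H4H (-1.74, adjusted p = 0.00779), HIST2H2BE, HIST2H2AA4 and H2AFY, all lower, and H3F3A, higher.

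Leaving out 1 library leaves 1 in its group, taken to vary as the other group does. Over these 4 fits HIST genes had 0 to 4 higher and 3 to 9 lower calls, variant genes 1 to 4 higher and 1 to 2 lower, the processing list 0 to 3 higher and 0 to 1 lower, the transcription list 0 to 1 higher and 1 to 2 lower, the chaperones 3 to 9 higher and 1 to 2 lower, the H2B ubiquitin list 0 to 1 higher and 1 to 2 lower, and the centromeric list 0 to 1 higher.

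All sign changes were in genes that did not pass in the analysis as reported, and the cause was not tested. Over the same 4 fits the log2 fold change ranged from -0.15 to 0.33 for HIST1H2AC, from -0.29 to 0.0698 for HIST3H2A, from -1.36 to 2.52 for HIST1H3G, from -0.12 to 0.42 for HIST1H3H, from -0.65 to 2.21 for HIST1H4C, from -4.32 to 3.01 for HIST1H4E and from -0.12 to 0.11 for H3F3B. H3F3B was also 0.0031 with no filter and 0.0042 with rows summed per gene. The log2 ratio of summed CPM stayed between -0.67 and -0.27 for HIST genes and between 0.15 and 0.35 for variant genes. The median SE of the tested HIST genes was 0.73 on the log2 scale, which holds counting error and the spread between libraries together.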

Other observations

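Outside the histone genes, 29 of the 36 tested transcripts with library 1 at least 3-fold above library 2 in both groups belonged to other genes. The gap was again taken with the prior count of 2. Of these 29, 20 were the row of their gene with the highest summed count, and the others were minor rows, such as those of CBX2 and USP49, both chosen after their values were seen.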
